A study of Homo sapiens with 2 samples.

Results

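Interferon-stimulated genes are the effector genes that cells switch on when interferon reaches them. The genes described here are 45 such genes outside the IFIT and GBP families, chosen by name with earlier results of these data known, so their share of lower genes is a description and not independent evidence. All 45 were measured, out of 19775 genes in all. Expression was measured in H2228, an established line of human lung adenocarcinoma with an EML4-ALK fusion (a kinase gene joined to a microtubule-binding partner), on GeneChip Human Genome U133 Plus 2.0 arrays. One group was H2228 cells given interleukin 4 (IL4) at 100 ng/mL for 30 min, according to the series description. The other group was untreated H2228 cells. For both groups, the labels also give a 48 h transfection (plasmids of EML4-ALK, siRNAs against it, or controls), and whether it applies to these cells is not settled by the sources used here.

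Each group holds 1 array, so there are no replicates, no test was possible and every value below is a difference between 2 arrays from cells of 1 line. Values are log2 expression values, so a difference of 1 is a 2-fold difference. Where a gene had several probe sets (groups of short probes for the same transcript), the brightest of them by the mean of both arrays stood for it. The median of all probe sets, 5.03, served as a level below which a signal was regarded as dim. Differences are IL4 minus untreated, and a gene was called higher or lower at 1.5-fold, which is 0.585 on the log2 scale. In RNA from a whole culture, fewer cells expressing a gene and less RNA per cell cannot be told apart.

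Type I interferons bind the receptor chains IFNAR1 and IFNAR2, whose kinases JAK1 and TYK2 phosphorylate STAT proteins. Phosphorylated STAT proteins join IRF9 in a complex that enters the nucleus and binds the interferon-stimulated response element in the promoters of the induced genes. IL4 uses another receptor and mainly STAT6, which does not belong to that complex. In epithelial cells many interferon-stimulated genes are also transcribed at a basal level without added interferon.

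The core of the response element is GAAA, any 2 bases and GAAA again, which on the other strand reads TTTC, any 2 bases and TTTC. It was searched on both strands of RefSeq promoters (GRCh38.p14), which run from 250 bases before to 50 bases after the start site. Of the 45 genes, 39 had a promoter in the table, and 24 of these (61.5%) held the core, against 4.38% of 27305 genes with a promoter and 3.57% of 35116 promoters. The stretches around the cores are printed for 6 genes that were lower with IL4 and for 3 that stayed below 1.5-fold, among them DTX3L, which shares its stretch with PARP9. They run 5′ to 3′ on the strand of the gene, with the cores in capitals and up to 20 bases on each side of them.
PARP9, chr3:122564312-122564361, minus strand: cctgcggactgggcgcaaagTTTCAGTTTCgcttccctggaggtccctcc
DTX3L, chr3:122564312-122564361, plus strand: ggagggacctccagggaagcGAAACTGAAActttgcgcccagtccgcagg
HERC5, chr4:88456974-88457074, plus strand: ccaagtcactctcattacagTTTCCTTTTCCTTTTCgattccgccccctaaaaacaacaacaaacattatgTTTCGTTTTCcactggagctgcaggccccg
EIF2AK2, chr2:37156957-37157006, minus strand: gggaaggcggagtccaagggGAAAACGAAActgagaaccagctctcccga
RSAD2, chr2:6877612-6877661, plus strand: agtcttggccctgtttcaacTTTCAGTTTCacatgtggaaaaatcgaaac
IFI44, chr1:78649751-78649800, plus strand: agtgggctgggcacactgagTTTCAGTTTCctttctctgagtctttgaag
SAMD9, chr7:93118086-93118135, minus strand: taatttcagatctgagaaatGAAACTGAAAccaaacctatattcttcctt
ISG15, chr1:1013364-1013419, plus strand: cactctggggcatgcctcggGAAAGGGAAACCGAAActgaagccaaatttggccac
PARP12, chr7:140062932-140062981, minus strand: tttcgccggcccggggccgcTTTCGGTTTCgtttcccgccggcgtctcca

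HERC5 holds 3 cores, the first 2 overlapping, and ISG15 holds 2 overlapping cores. In 4 of these promoters a core starts close to the start site of transcription, which is position 0. It starts at -6 in EIF2AK2 and DTX3L, at -10 in PARP12 and at -18 in IFI44. From the other start site listed for IFI44, the same core starts at -60. For RSAD2 and PARP9, only 1 of the 2 promoters in the table holds the core. A match describes these letters and does not show that a factor binds there.

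With IL4, 9 of the 45 genes (20%) were at least 1.5-fold lower and 0 were at least 1.5-fold higher. The background over all 19775 genes was 4.39% lower and 3.21% higher, and over the 12949 genes at or above the median level it was 5.88% lower and 4.34% higher. Over the 7887 genes at or above the 75th percentile it was 6.45% lower and 5.38% higher. After a loess correction of the difference on level, 8 were lower and 1, PARP12, was higher, and SAMD9 was the lower gene lost. Of the 44 listed genes at or above the median level, 8 were lower, since RSAD2 fell below it. The lower genes were IFI16, PARP9, HERC5, CMPK2, EIF2AK2, RSAD2, OASL, IFI44 and SAMD9. At 2-fold, 2 of the 45 were lower, IFI16 and PARP9, with a background of 0.89%, and 0 were higher, with a background of 1.11%. The differences of the 45 genes ran from -1.19 to 0.56 with a median of -0.24, and the median over all genes was 0. The median of the list was -0.12 when all probe sets of a gene, dim ones included, were averaged. Over the 34 listed genes at or above the 75th percentile it was -0.16. Below 0 lay 33 of the 45 (73.3%), against 48.1% of all genes and 53.1% of those at or above the median level. A total of 17 genes lay within 0.2 of 0, so the lower genes were a minority of the list.

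**Figure D1:**
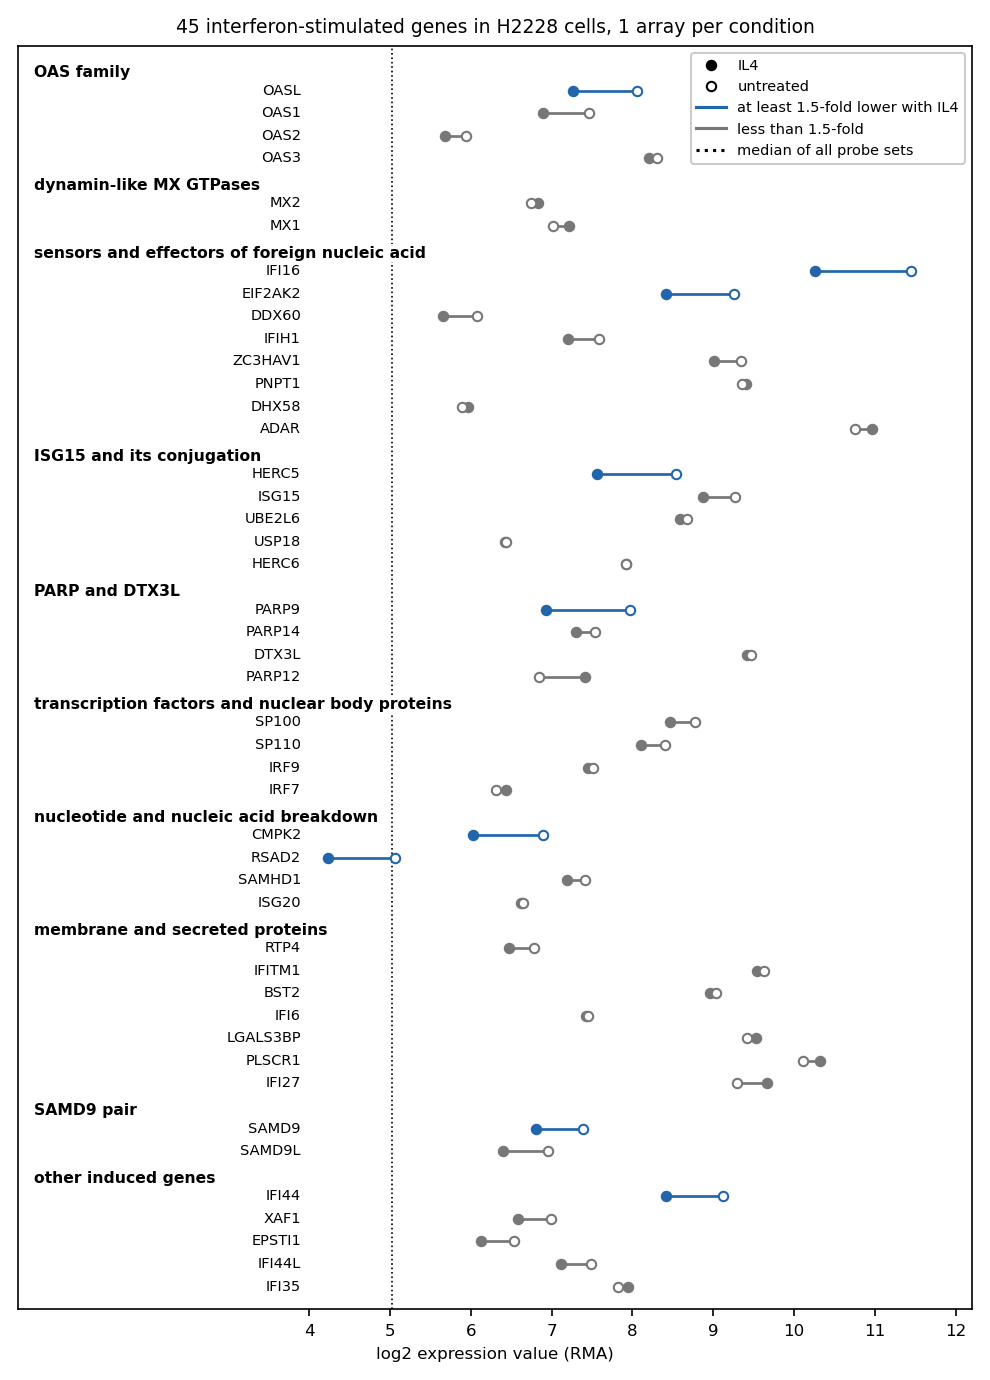
Log2 expression values (x axis) of the 45 interferon-stimulated genes (rows, grouped by role) with IL4 (filled circles) and in untreated cells (open circles), with 1 array for each condition, and only values of the same row are comparable. Blue rows are the 9 genes at least 1.5-fold lower with IL4, grey rows are below 1.5-fold, and the dotted line is the median of all probe sets, 5.03; RSAD2 is the gene that crosses it. The heading on nucleotide and nucleic acid breakdown also holds CMPK2 and RSAD2, whose products do not act by breakdown. That on foreign nucleic acid also holds ADAR and PNPT1, whose products are not limited to it.

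Each gene was also placed among all other genes whose mean level lay within 0.25 log2 units of its own, 279 to 1586 genes for each. Of the 45, 8 lay below the 5th percentile of the genes of similar level, among them RSAD2, which was dim with IL4, and 0 lay above the 95th. The median gene of the list stood above 27.8% of the genes of its level. On average, 6.66% of the genes of similar level were at least 1.5-fold lower and 5.00% at least 1.5-fold higher. For IFI16, 0.348% of 287 genes of its level had a lower difference, and for HERC5 it was 1.08% of 1113. At the upper end, PARP12 stood above 94.6% and IFI27 above 89.3% of the genes of their levels. These places describe 2 arrays and are no test.

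**Figure D2:**
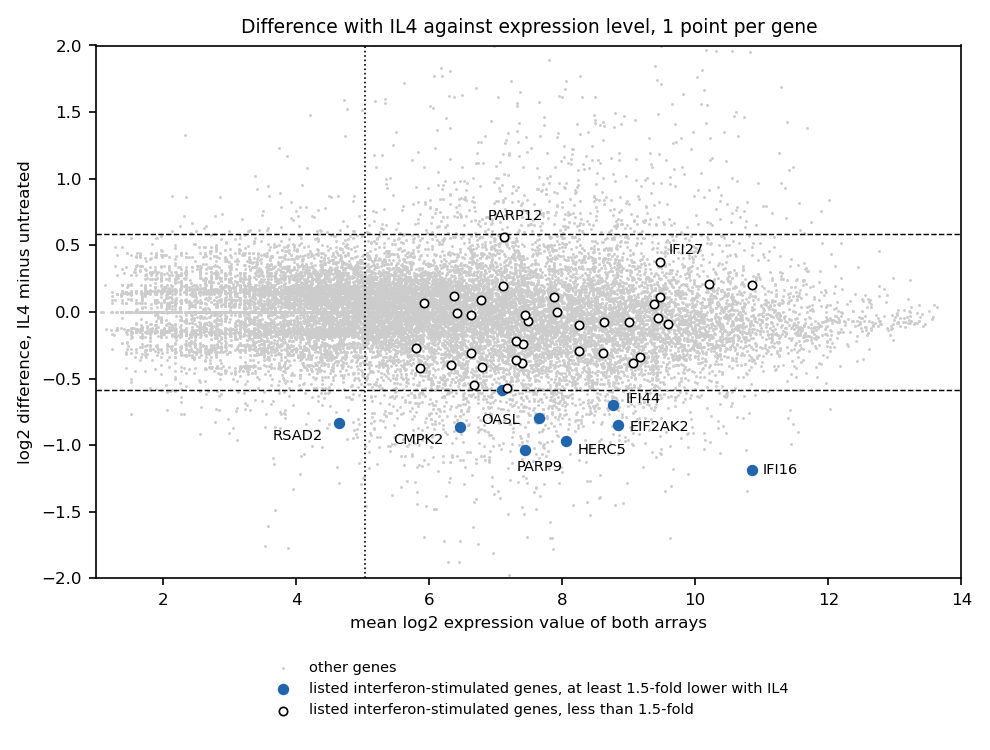
Log2 difference, IL4 minus untreated (y axis), against the mean log2 value of both arrays (x axis), 1 point per gene. Filled blue points are the 9 listed genes past 1.5-fold, open points are the 36 others of the list, grey points are all other genes (36 lie outside the plotted range), dashed lines mark 1.5-fold and the dotted line marks the median of all probe sets; IFI16 is the lowest point of the list at -1.19 and PARP12 the highest at 0.56.

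Among 8 genes whose products sense or act on RNA or DNA, 2 were lower and 0 were higher. IFI16, a nuclear DNA sensor of the PYHIN family that is also involved in growth control, was at 10.26 with IL4 and 11.45 in untreated cells, which is 2.28-fold lower. All 3 of its probe sets fell, with differences of -1.19, -1.26 and -1.30, and all 3 can bind several transcripts by their design. EIF2AK2, which encodes the kinase PKR that halts translation upon binding double-stranded RNA, was at 8.41 with IL4 and 9.26 in untreated cells, 1.80-fold lower. Its further probe sets had differences of -0.84 and -0.35. The other 6 genes of the group were less than 1.5-fold apart. DDX60, which encodes an RNA helicase, had a difference of -0.42, and IFIH1, which encodes the RNA sensor MDA5, had -0.38. ZC3HAV1, which encodes the zinc finger antiviral protein, had -0.34, -0.41 and -0.47 over its 3 probe sets. ADAR, the enzyme that edits adenosine in double-stranded RNA, DHX58, a helicase that tunes RNA sensing, and PNPT1, a mitochondrial exoribonuclease, lay above 0 at 0.20, 0.07 and 0.06.

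Of the 4 genes of the OAS family, 1 was lower and 0 were higher. OAS enzymes make short adenylate chains that activate RNase L, whereas the related OASL protein lacks this activity and acts on RNA sensing. OASL was at 7.26 with IL4 and 8.06 in untreated cells, 1.73-fold lower, and its further probe set was at -0.94. OAS1 was at 6.89 with IL4 and 7.46 in untreated cells, a difference of -0.57 that lay just outside 1.5-fold. The further probe set of OAS1 was at -0.31. For OAS2 the probe sets went in opposite directions, with -0.27, 0.16 and -0.24, so no direction is given for it. OAS3 was at 8.21 with IL4 and 8.30 in untreated cells, almost level, and averaged with a further, dim probe set its difference was 0.03.

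The MX genes, which encode dynamin-like GTPases that block incoming viruses and are widely used interferon markers, were not among the lower genes. MX1 was at 7.22 with IL4 and 7.02 in untreated cells, and MX2 was at 6.83 with IL4 and 6.74 in untreated cells. Both differences, 0.19 and 0.09, lay above 0 and below 1.5-fold.

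Of the 5 genes around ISG15, a ubiquitin-like protein that is attached to other proteins, 1 was lower. HERC5, the main ligase for ISG15 in human cells, was at 7.57 with IL4 and 8.54 in untreated cells, 1.96-fold lower, on its only probe set. ISG15 itself was at 8.88 with IL4 and 9.26 in untreated cells, a difference of -0.38. UBE2L6, the conjugating enzyme that precedes HERC5, was at 8.59 with IL4 and 8.67 in untreated cells. USP18, which removes ISG15 and restrains the interferon receptor, was at 6.42 with IL4 and 6.43 in untreated cells. HERC6, a close relative of HERC5, had the same deposited value on both arrays, 7.92, as did 1275 of all genes (6.45%). The ligase gene was therefore the 1 member of this conjugation group past 1.5-fold.

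In the group of PARP proteins, which attach ADP-ribose, and their partner DTX3L, PARP9 and PARP12 stood near opposite ends of the list. PARP9 was at 6.93 with IL4 and 7.97 in untreated cells, 2.05-fold lower, but its further probe set was at 6.17 with IL4 and 6.30 in untreated cells, a difference of -0.14. Its larger difference rests on a probe set that can bind several transcripts, and without such probe sets PARP9 was not past 1.5-fold. DTX3L, the ubiquitin ligase that pairs with PARP9 and whose gene starts beside it on chromosome 3, was at 9.42 with IL4 and 9.46 in untreated cells. PARP12 was at 7.41 with IL4 and 6.85 in untreated cells, a difference of 0.56 just outside 1.5-fold and the highest of the 45 genes. The only probe set of PARP12 is also of the kind that can bind several transcripts. PARP14 had a difference of -0.24.

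Among 4 genes whose products act on nucleotides or nucleic acid, CMPK2 and RSAD2 were lower. CMPK2, a mitochondrial nucleotide kinase, was at 6.02 with IL4 and 6.89 in untreated cells, 1.82-fold lower. RSAD2 encodes viperin, which turns CTP into a chain terminator. It was at 4.23 with IL4, below the median of all probe sets, and 5.07 in untreated cells, so no fold is given for it. Its further probe set was at 3.50 with IL4 and 4.09 in untreated cells, dim on both arrays. SAMHD1, which breaks down deoxynucleotides, had a difference of -0.22, with -0.22 to -0.35 over its 4 probe sets at or above the median level. The exonuclease gene ISG20 was level at -0.02.

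SAMD9 and SAMD9L, neighbouring genes whose products restrict poxviruses and restrain growth, lay on either side of 1.5-fold. SAMD9 was at 6.80 with IL4 and 7.39 in untreated cells, a difference of -0.59 that barely reached it, and SAMD9L was at 6.40 with IL4 and 6.95 in untreated cells, a difference of -0.55. All 5 probe sets of the pair lay below 0, at -0.59 and -0.67 for SAMD9 and at -0.55, -0.38 and -0.35 for SAMD9L.

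Of 5 further induced genes, IFI44 was lower, at 8.42 with IL4 and 9.11 in untreated cells, which is 1.62-fold. Its further probe set was at -0.89. IFI44L, its neighbour and paralog, had a difference of -0.36, XAF1, an antagonist of the apoptosis inhibitor XIAP, had -0.41, and EPSTI1 had -0.40. IFI35 was at 0.12.

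The 4 genes of transcription factors and nuclear body proteins and the 7 genes of membrane and secreted proteins had 0 genes past 1.5-fold. IRF9, the DNA-binding partner in the interferon-activated complex, was at 7.45 with IL4 and 7.51 in untreated cells, and IRF7, a factor that amplifies interferon production, was at 6.44 with IL4 and 6.32 in untreated cells. SP100 and SP110, proteins of nuclear bodies, had differences of -0.31 and -0.29, and all of their 9 probe sets at or above the median level lay below 0. IFITM1 and BST2, which hinder entry and release of enveloped viruses, had -0.09 and -0.08, IFI6 had -0.03, RTP4 had -0.31 and LGALS3BP, a secreted glycoprotein, had 0.11. IFI27 was at 9.66 with IL4 and 9.29 in untreated cells, a difference of 0.37. For PLSCR1, a phospholipid scramblase, the probe sets differed in sign, at 0.21 and -0.13, and no direction is given.

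Of the 45 genes, 22 had several probe sets, and 16 had a further probe set at or above the median level. These 16 genes had 28 such further probe sets, of which 26 moved in the same direction as the probe set that stood for the gene. Among the lower genes, 6 had 8 further probe sets at this level. All 8 had differences below 0 and 6 of them were past 1.5-fold, the others being the further probe set of PARP9 and 1 of EIF2AK2. HERC5 and CMPK2 had 1 probe set each, so their differences have no such further reading. Over all genes, probe sets of the same gene differed with a standard deviation of 0.25 between their differences, over 6056 genes with such a pair. This spread is within the same arrays and leaves out the variation between cultures.

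In 8 pairs, genes of the list lie next to each other among protein-coding genes, and in some of the pairs the differences were alike while in others they were not. SAMD9 and SAMD9L had -0.59 and -0.55, and MX2 and MX1 had 0.09 and 0.19. HERC6 and HERC5 differed more, with 0 and -0.97, as did PARP9 and DTX3L with -1.04 and -0.04, OAS1 and OAS3 with -0.57 and -0.10, and IFI44L and IFI44 with -0.36 and -0.70. OAS3 had -0.10 beside OAS2, whose probe sets differed in sign. CMPK2 had -0.87, and it is not compared with RSAD2 beside it, which was dim with IL4. The PARP9 and DTX3L stretches printed above are the same bases read on opposite strands, so both genes share the core between them. DTX3L was level, and the call of PARP9 rests on the probe set at -1.04, since its further probe set was at -0.14.

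The median differences of genes with and without the core in their promoters lay close together. Of the 24 genes with it, 6 were lower and the median was -0.27, with a range from -1.04 to 0.56. Of the 15 genes whose promoters lacked these letters, 2 were lower, IFI16 and CMPK2, and the median was -0.29. The gamma-activated site TTCNNNGAA, which reads the same on both strands, was found in the promoters of 14 of the 39 genes (35.9%), against 9.38% of all genes with a promoter. Of those 14 genes 0 were lower, against 8 of the 25 without it, and the medians were -0.08 and -0.36. The lowest of the 14 was at -0.57, just outside 1.5-fold. In the whole list of 45 genes 20% were lower. The group of 14 is small, and whether it differs from the rest of the list was not tested. The STAT6 site, TTC and GAA with any 4 bases between them, was in 4 of the 39 (10.3%), against 7.80% of all genes. Of these 4 genes 0 were past 1.5-fold, but their median was -0.32, against -0.24 for the 35 without the site. Windows of 300 bases leave out distant elements, and these counts carry no test.

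The other genes of the interferon pathway were described from lists, 109 entries of which 97 were measured. Beside the counts given for these lists, 4.34% of all genes at or above the median level were higher and 5.88% were lower. Most lists are small, and whether any of them differs from all genes was not tested. Interferon genes themselves were dim. All 18 that were measured lay below the median level by their mean, with values up to 4.82 with IL4 and 5.15 in untreated cells, and 0 were past 1.5-fold. IFNB1, the gene of interferon beta, was at 3.76 with IL4 and 3.89 in untreated cells. Of 9 genes of receptor chains and kinases, 2 were higher and 0 were lower. IFNAR2 was at 8.37 with IL4 and 7.18 in untreated cells, a difference of 1.19 on its brightest probe set. Its further probe sets had 0.56, below 1.5-fold, and 0.76. IFNGR2, a chain of the receptor for interferon gamma, was at 10.22 with IL4 and 9.15 in untreated cells. Of 6 inhibitors, SOCS1, which blocks JAK kinases, was higher by 2.24 on its brightest probe set and by 0.87 and 0.79 on further ones at or above the median level, and PIAS1, which restrains STAT proteins, was lower by 0.60 on the log2 scale.

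Of 13 genes that act in the induction of interferon, 1 was higher and 2 were lower. TICAM1, the adaptor of TLR3, had a difference of 0.83, while TLR3, a receptor for double-stranded RNA, had -0.78. AZI2, an adaptor of the kinase TBK1, had -0.59 on its brightest probe set, with 0.14 and -0.41 on further ones at or above the median level. RIGI, an RNA sensor related to IFIH1, was at 8.04 with IL4 and 7.92 in untreated cells. Of 5 other IRF genes, IRF2, which can repress response elements, was lower with a difference of -0.88, and the activator IRF1 had 0.52, below 1.5-fold.

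Of 4 IFIT genes, 3 were lower, IFIT1 with a difference of -2.38, IFIT2 with -1.97 and IFIT3 with -1.45. On these probe sets, the brightest of each gene, all 3 lay below IFI16, the lowest of the 45. Further probe sets of IFIT2 and IFIT3 had -0.92 and -1.13, which lay above IFI16 at -1.19. Of 6 GBP genes, 2 were higher, GBP1 with 2.34 and GBP2 with 0.88. The other 4 GBP genes were below 1.5-fold, from -0.45 in GBP4 to 0.10 in GBP3, and the median of the family was -0.02. In a further list of 36 measured interferon-stimulated genes, 3 (8.33%) were higher and 1 (2.78%) was lower, with a median of 0.01. Over all genes at or above the median level the shares were 4.34% higher and 5.88% lower. These few genes are therefore not read as a trait of the list. ZNFX1 had 1.02, HELZ2 had 0.82 on its brightest probe set, with 0.39 and 0.04 on further ones at or above the median level, TRIM21 had 0.66 and TRIM5 had -0.63. Among the interferon-stimulated genes of these lists there were thus lower, level and higher members, as there were among all genes. Whether the 45 genes differ from the other lists was not tested.

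**Figure D3:**
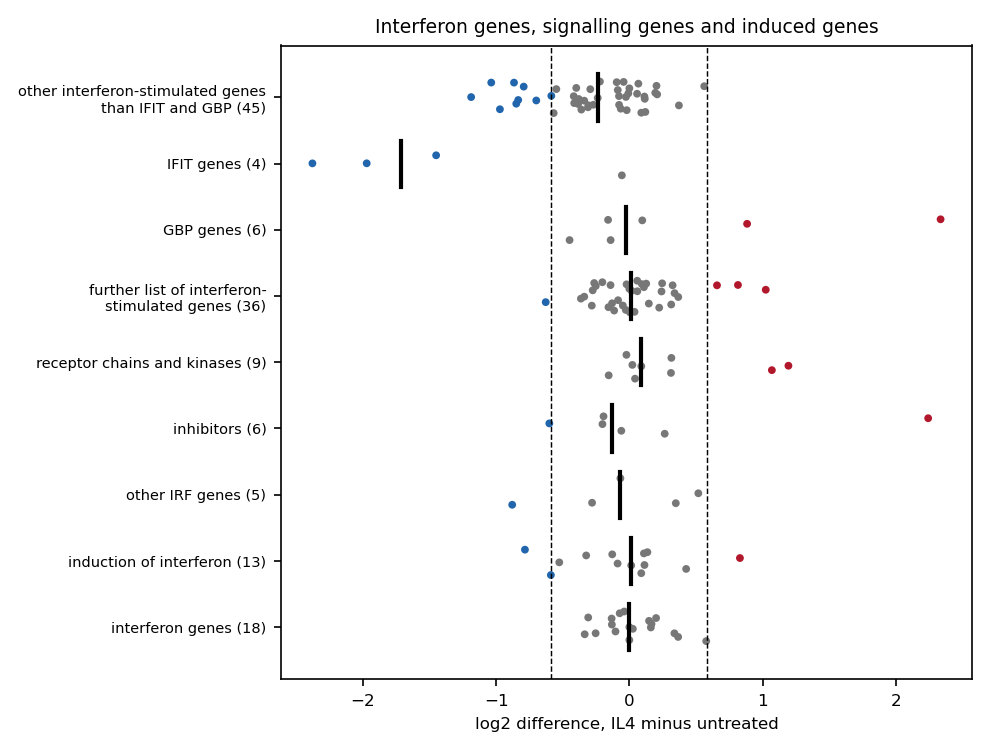
Log2 difference, IL4 minus untreated (x axis), for the 45 genes and for the other lists of the pathway (rows, with the number of measured genes), with a point for each gene, jittered vertically. Medians are drawn as black bars, 1.5-fold as dashed lines, and blue and red points are genes past 1.5-fold; the 45 genes have 9 blue points and a median of -0.24, and the IFIT genes have 3 blue points and a median of -1.71.

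Values on the arrays ran from 0.96 to 13.65 with IL4 and from 1.0 to 13.64 in untreated cells. All 10 epithelial and lung adenocarcinoma markers lay at or above the median level, EPCAM for example at 11.62 with IL4 and 11.80 in untreated cells, and of these CDH1 was higher and NKX2-1 lower by at least 1.5-fold. On their further probe sets at or above the median level, CDH1 had a difference of 0.69 and NKX2-1 had -0.32, below 1.5-fold. Of 12 measured leukocyte markers, 3 lay at or above it, and the pan-leukocyte marker PTPRC was at 2.37 with IL4 and 2.50 in untreated cells. The 12 ranged from 2.37 to 5.95 with IL4 and from 2.39 to 5.67 in untreated cells. The lists of leukocytes and endothelium had 0 genes past 1.5-fold, and that of fibroblasts had 1, COL3A1, which lay below the median level. Of the 8 fibroblast markers, 2 lay at or above it, COL1A1 for example at 11.23 with IL4 and 10.82 in untreated cells. On the further probe sets of COL1A1, the log2 differences ran from 0.06 to 0.90. For ACTB, the 3′ control probe set exceeded the 5′ one by 1.43 with IL4 and 1.73 in untreated cells, and for GAPDH the excess was 0.14 with IL4 and 0.16 in untreated cells. The part of these values in the differences of the 45 genes was not tested.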

How the data were processed

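Expression of 54675 probe sets was deposited for 2 arrays on the log2 scale. RMA (background correction, quantile normalization and summary of the probes) is named in the submitters' processing notes, with its version not given in the sources used here, and was not repeated. Probe sets annotated to 1 gene (41097) were used, 41043 of them brought to current symbols through the RefSeq table of GRCh38.p14, and 2 probe sets that name a member beside another gene were left out. Genome coordinates come from RefSeq promoters, not from the arrays, and no build is given for the array in the sources used here.

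The members, the gene lists and the rule for the genes named were chosen with earlier results of these data known. The rule takes every member past 1.5-fold, the 3 just inside and the 3 just outside, members whose probe sets differ in sign, neighbouring pairs, and genes past 1.5-fold from each list of the pathway; other members are given by role. No test could be made on 1 array for each condition, and the number of arrays limits the precision. The counting code was run on simulated data with planted differences and less noise than the spread between probe sets of a gene. That run checks the code and not the calls made on these arrays. The alternatives tried were 2-fold in place of 1.5-fold, only genes at or above the median or the 75th percentile of probe set levels, averaging a gene's probe sets, leaving out probe sets whose design lets them bind several transcripts, a loess correction (fraction 0.3), quantile normalization and centring on the median. Python 3.11.15, numpy 2.4.6, pandas 2.3.3, statsmodels 0.14.6 and matplotlib 3.10.9 were used.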

Additional observations from a re-analysis of the deposited data

How the results depend on the processing

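The count of lower genes stayed within 1.5 times of 9 under every alternative run except the 2-fold level, which left 2. It was 8 with the loess correction, with quantile normalization and with the floor at the median, 7 with the floor at the 75th percentile (34 genes left), 7 when probe sets designed to bind several transcripts were dropped (36 genes left), and 11 with centring, which added OAS1 and SAMD9L. SAMD9 was the gene lost with the loess correction (-0.55) and with quantile normalization (-0.57). The count of higher genes was 0 except with the loess correction, where it was 1, PARP12. The median of the list ran from -0.28 to -0.12 over the alternatives. Its lowest size came with the mean over probe sets, dim ones included. PARP9 had -0.59 as a mean over its probe sets and -0.14 without the probe sets of shared design. Averaged with their further probe sets, all of them dim, IFIH1 had -0.06 and EPSTI1 -0.20. IFI16 and PARP12 were among the genes that could not be measured without the probe sets of shared design. None of the lower genes changed sign in the alternatives run. No paired analysis was possible because each condition has 1 array, and for the same reason no replicate could be left out.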
